A study of Mus musculus with 21 samples.

Results

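The small leucine-rich proteoglycans are described here by 10 genes: Dcn, Bgn, Lum, Fmod, Aspn, Ogn, Omd, Prelp, Epyc and Podn. Their rows were taken by Ensembl gene identifier from a deposited table of 26852 mouse genes, and all 10 were among the 12976 genes that passed a filter on low values. The table holds RNA-seq of bone marrow-derived Nes low mesenchymal cells in 21 libraries. All hosts were Nestin+ NSG mice, an immunodeficient strain in which the Nestin promoter drives GFP, and they were 8 to 12 weeks of age and unconditioned at transplant. The ctrl group was unengrafted (3 libraries). The other mice received a human acute myeloid leukemia line, HL60 or ML1, that secretes a lipid-permeable mCherry taken up by neighboring cells. At an early time point the Nes low cells were sorted into mCherry-negative (ch-) and mCherry-positive (ch+) cells, with 3 libraries for each sort and line, and at a late time point they were taken without this sort, with 3 libraries for each line. The model is limited to 2 cell lines in hosts that lack lymphocytes, and the labels do not show whether libraries of a group came from separate animals, so p-values measure the spread between these libraries.

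The labels were checked against the values before the members were read. For the 3 late ML1 libraries the treatment field speaks of unengrafted mice, while the title and time point place them in late leukemia. They were kept as late, and late results of members are also given for HL60 apart or without them, as are the late counts of the gene lists. The shared extraction text speaks of sorting CD31-labelled endothelial cells, whereas the source is given as mesenchymal. The 6 endothelial genes summed to between 0.152 and 0.388 normalized kilocounts in the 21 libraries, Cdh5 being the most abundant in ctrl (37.9% of the sum) and Tie1 lying below the filter. The 9 mesenchymal genes (Cxcl12, Lepr, Kitl and others) summed to between 46.2 and 137 kilocounts, all 9 passing the filter. Genes of bone and cartilage cells were abundant as well: the 8 osteoblast genes had a ctrl median of 124 kilocounts and the 13 chondrocyte genes one of 110. In bulk samples, fewer cells of a type and less RNA per cell cannot be told apart. The deposited values are normalized counts on a log2 scale, so that they do not show how deeply any single library was sequenced, and a difference of 1 is a doubling.

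SLRPs are secreted core proteins built of leucine-rich repeats, most of which carry chondroitin, dermatan or keratan sulfate chains. They bind collagen fibrils and set their diameter and spacing, and several of them bind growth factors such as TGF-β or signal through Toll-like receptors. In bone, decorin and biglycan are made by osteoblasts and their precursors, whereas fibromodulin, epiphycan and chondroadherin are known from cartilage and tendon.

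Levels were compared between members per kilobase of annotated exon. In ctrl, Bgn (biglycan) stood highest, at a log2 level per kb of 13.05 ± 0.08 (SD, n = 3), followed by Dcn (decorin) at 12.40 ± 0.09, Lum (lumican) at 11.84 ± 0.16, Prelp at 11.39 ± 0.37 and Fmod (fibromodulin) at 10.36 ± 0.68. Ogn (osteoglycin, also mimecan) at 8.53 ± 0.55, Aspn (asporin) at 8.37 ± 0.54 and Omd (osteomodulin) at 7.81 ± 0.07 formed a middle group. Podn (podocan) at 6.20 ± 0.82 and Epyc (epiphycan) at 5.95 ± 0.33 were lowest. The ctrl libraries of Lum and Prelp, of Prelp and Fmod, of Ogn and Aspn, of Aspn and Omd and of Podn and Epyc overlapped, so their order is not set beyond the spread. By the mean over all libraries, with no correction for length, Bgn ranked 12th and Dcn 19th of all genes in the table.

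Among the comparisons, late leukemia held the most members that passed the test (limma, adjusted p under 0.1 over all 12976 genes). Late against ctrl, 6 of 10 members were called, beside 21.5% of all genes: Dcn, Lum, Fmod, Omd and Epyc fell and Podn rose. Genes called lower made up 11.4% of all genes, and the median log2 fold change was -1.0 over the members and 0.02 over all genes. The member median was -0.39 in HL60 and -1.93 in ML1. In HL60 late against ctrl 6 members were called (13.7% of all genes) and in ML1 late against ctrl 8 (22% of all genes). Without the late ML1 libraries, an alternative chosen after seeing the data, 5 members were called, beside 12.4% of all genes: Dcn, Lum, Fmod and Epyc lower and Ogn higher.

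Early cells held fewer. In ch+ cells against ctrl, 3 members (Fmod, Prelp and Epyc) were called, beside 6.17% of all genes, all 3 lower (2.75% of all genes). The same 3 were called in ch+ against ch- cells, beside 6.26% of all genes, again all lower (2.68%). In ch- cells against ctrl, limma called 0 members, beside 1.92% of all genes, and 1 member (Epyc) had an unadjusted p under 0.05. In late against ch+ cells 5 members were called, beside 19.7% of all genes: Dcn, Lum and Omd lower, Prelp and Podn higher. Without the late ML1 libraries 6 were called, beside 11.4% of all genes. Dcn and Lum were lower, and Fmod, Aspn (1.72, adjusted p = 0.0179), Ogn (0.54, 0.052) and Prelp higher. This sets late HL60 against ch+ cells of both lines, so that stage and line are mixed. Aspn had means of 10.45 in late HL60, 9.75 in ch+ HL60 and 7.72 in ch+ ML1. With the HL60 libraries alone Fmod and Aspn were not called. Between late and ch+ cells Ogn went in opposite directions in the lines, higher with HL60 alone (0.63, adjusted p = 0.0598) and lower with ML1 alone (-0.87, 0.00857). These comparisons share groups and are not independent of each other. The paper draws both early sorts from the same marrow, but the labels match no ch+ library to a ch- library, and they were compared unpaired.

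Rescaling each library moved the late comparisons. The values of all genes, converted from log2, summed to 7.265 to 9.022 normalized megacounts in the late libraries and to 11.21 to 14.74 in the others. With libraries rescaled to the same total the median of all genes in late against ctrl shifted from 0.02 to 0.71, and to 0.53 when the most abundant gene was left out of the total. In late against ch+ cells the same rescalings shifted it from 0.02 to 0.63 and 0.50, and in late HL60 against late ML1 to -0.24 and -0.15. With equal totals that of ch+ against ch- cells went from -0.02 to 0.13. Dcn, Lum, Fmod, Omd and Epyc were lower late than in ctrl, and Podn higher, under each of these scalings and under quantile normalization. The number of members called higher in late cells against ctrl went from 1 (10.2% of all genes) to 4 with equal totals (60%). It was 3 with totals that leave out the most abundant gene (44.1%) and 3 with quantile normalization (10.4%), while 5 were called lower under all. Against ch+ cells the number called higher went from 2 (8.79% of all genes) to 7, 4 and 3 in the same order (65.1%, 52.2% and 9.86%). There Bgn was called higher under each of these scalings (0.65, 0.52 and 0.89), and 3 members were called lower under all.

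**Figure D1:**
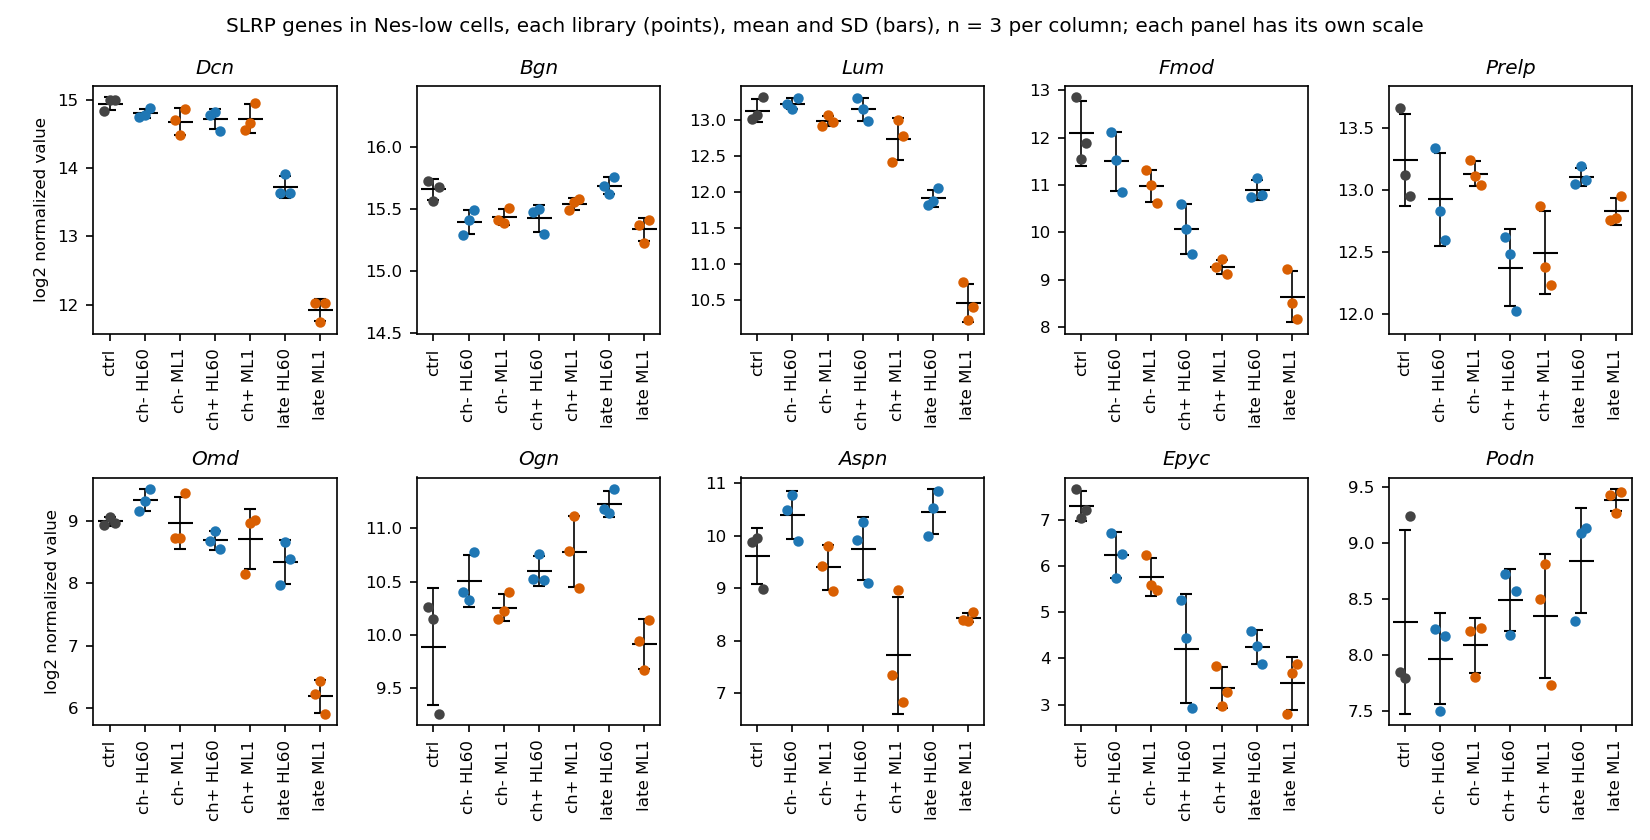
Log2 normalized value of each SLRP gene (vertical axis, its own scale in each panel) in every library (points) by group and cell line (horizontal axis), with the mean and SD of 3 libraries (bars). Dcn, Lum and Omd are low in the late groups and lowest in late ML1, while Fmod and Epyc are already low in ch+ cells.

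Class I SLRPs with dermatan or chondroitin sulfate chains, decorin and biglycan, behaved apart from each other. Dcn (ENSMUSG00000019929) had log2 values of 14.84, 15.00 and 15.00 in ctrl, of 13.63, 13.91 and 13.63 in late HL60 and of 12.02, 11.74 and 12.02 in late ML1. In the 6 ch- libraries Dcn ran from 14.48 over a median of 14.76 to 14.88, and in the 6 ch+ libraries from 14.55 over 14.72 to 14.96. The late libraries were lower than every other library of the table, with no overlap, and late ML1 lay below late HL60, while both early groups overlapped ctrl. Dcn fell by 2.12 ± 0.32 (SE) in late cells against ctrl, a 4.35-fold difference (adjusted p = 1.18e-05, lower in 6 of 6 libraries; exact permutation p = 0.0238). The fall was 2.33-fold in HL60 (log2 -1.22, 95% interval -1.48 to -0.97) and 8.12-fold in ML1 (log2 -3.02, -3.28 to -2.76), and against ch+ cells it was 3.73-fold (log2 -1.90, adjusted p = 2.25e-06; without the late ML1 libraries 3.9e-08, at a log2 value of -1.0). In ch+ cells the difference from ctrl was -0.22, with an interval of -0.87 to 0.42 (adjusted p = 0.782).

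Bgn (ENSMUSG00000031375), on chromosome X and a ligand of Toll-like receptors, had values of 15.73, 15.57 and 15.68 in ctrl, 15.69, 15.62 and 15.76 in late HL60 and 15.37, 15.23 and 15.41 in late ML1. Late HL60 thus overlapped ctrl and late ML1 lay below both. The pooled difference was -0.15 with an interval of -0.41 to 0.12 (adjusted p = 0.512), while in late ML1 the value of -0.32 passed (adjusted p = 0.0222, lower in 3 of 3 libraries). Both directions turned with scaling. The pooled value was 0.80 after quantile normalization, 0.55 with equal library totals and 0.37 with totals that leave out the most abundant gene, and that of ML1 0.56, 0.49 and 0.27, each with an adjusted p under 0.1. The 6 ch- libraries, from 15.29 to 15.51, lay below all 3 ctrl libraries, but the difference of -0.24 did not pass (adjusted p = 0.459; exact permutation p = 0.0119, the smallest that 6 libraries against 3 can give).

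Aspn (ENSMUSG00000021388), a class I member that lacks the usual glycosaminoglycan attachment site and binds TGF-β and collagen, differed between the cell lines. Its values were 9.87, 9.96 and 8.99 in ctrl, 9.91, 10.25 and 9.09 in ch+ HL60 and 7.35, 8.97 and 6.84 in ch+ ML1. They were 9.99, 10.53 and 10.85 in late HL60 and 8.39, 8.38 and 8.54 in late ML1. In both groups every ML1 library lay below every HL60 library and below ctrl, and late HL60 lay above ctrl. In ch+ cells Aspn was 2.03 ± 0.37 higher in HL60 than in ML1 (adjusted p = 0.041), and in late cells 2.02 ± 0.37 higher (adjusted p = 5.54e-04). Against ctrl it fell in ML1, by 1.89 in ch+ (adjusted p = 0.00151) and by 1.17 in late cells (adjusted p = 0.0242). The late ML1 call was lost with equal library totals and with totals that leave out the most abundant gene. In HL60 Aspn differed from ctrl by 0.14 in ch+ and by 0.85 in late cells, neither of which passed. The late HL60 value passed (adjusted p = 0.0652) in a fit of the HL60 and ctrl libraries alone. In ch+ against ch- cells the pooled value of -1.15 did not pass (adjusted p = 0.212), but it did with 7 groups by line (0.00418), without the late ML1 libraries (0.0913) and without ch+ HL60 library 524 (-1.46, 0.0875). The pooled value also passed with a block on libraries matched by number order (adjusted p = 7.9e-05), a matching that the labels do not give. The call between the lines in ch+ cells was lost without ch+ HL60 library 523 (1.95, adjusted p = 0.226) or 524 (1.78, 0.252) and without ch+ ML1 library 538 (1.85, 0.153) or 541 (1.59, 0.344). It was also lost with no filter (adjusted p = 0.232), no mean-variance trend (0.27), robust variance (0.314), sample weights (0.135) and only the compared groups fitted (0.126). In ch- cells the difference between the lines was 1.00, with 3 of 3 HL60 libraries higher and an adjusted p of 0.565.

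The class II members are the keratan sulfate or sulfated-tyrosine SLRPs lumican, fibromodulin, PRELP and osteomodulin. Lum (ENSMUSG00000036446), which keeps collagen fibrils thin and evenly spaced, had values of 13.01, 13.07 and 13.32 in ctrl, 11.82, 11.87 and 12.05 in late HL60 and 10.75, 10.22 and 10.39 in late ML1. In ch- cells Lum ran from 12.92 to 13.31 and in ch+ cells from 12.42 to 13.31. Its libraries were ordered as those of Dcn were: late below all others, ML1 below HL60 within late, and early overlapping ctrl. Lum fell by 1.95 ± 0.28 in late cells against ctrl (3.87-fold, adjusted p = 7.44e-06, 6 of 6 libraries lower), with a log2 fold change of -1.22 in HL60, -2.68 in ML1 and, with equal library totals, -1.26 for both lines pooled. Against ch+ cells it fell by 1.76 (adjusted p = 1.06e-06), and without the late ML1 libraries by 1.03 (adjusted p = 2.12e-06).

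Omd (ENSMUSG00000048368), an osteoblast product that binds hydroxyapatite, had values of 8.93, 9.06 and 8.97 in ctrl, 7.97, 8.66 and 8.38 in late HL60 and 6.22, 6.44 and 5.91 in late ML1. Late ML1 was far below every other group, late HL60 was slightly below ctrl with no overlap, and the early groups, from 8.15 to 9.51, surrounded the ctrl values. Omd fell by 1.72 ± 0.41 in late cells (3.30-fold, adjusted p = 0.0029, 6 of 6 libraries lower), and by 1.03 with equal library totals (adjusted p = 0.022). In ML1 the fall was 6.94-fold (log2 -2.80) and in HL60 1.57-fold (log2 -0.65, adjusted p = 0.0977). The HL60 call was lost with quantile normalization, with equal library totals and with totals that leave out the most abundant gene. Without the late ML1 libraries the pooled call ended (-0.65, adjusted p = 0.101), and so did that of late against ch+ cells (-0.36, adjusted p = 0.393, from -1.43 with an adjusted p of 0.00228).

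Fmod (ENSMUSG00000041559), which binds collagen I and is known to direct tendon progenitors, was lower from the early stage on. Its values were 12.85, 11.54 and 11.88 in ctrl, 10.59, 10.07 and 9.54 in ch+ HL60 and 9.27, 9.43 and 9.12 in ch+ ML1. In late cells they were 10.75, 11.14 and 10.78 for HL60 and 9.23, 8.51 and 8.18 for ML1, and in ch- cells they ran from 10.63 over a median of 11.15 to 12.11. All ch+ libraries lay below all ch- and all ctrl libraries, late HL60 lay above ch+ HL60, and late ML1 overlapped ch+ ML1. Fmod fell by 2.42 ± 0.47 in ch+ cells against ctrl (5.35-fold, adjusted p = 0.0016, 6 of 6 lower) and by 1.57 ± 0.38 against ch- cells (2.96-fold, adjusted p = 0.0115, 6 of 6 lower). Of these, the second was lost with no filter on low values (adjusted p = 0.103). In late cells it fell by 2.33 ± 0.47 against ctrl (adjusted p = 5.74e-04), with a log2 fold change of -1.2 in HL60 and -3.45 in ML1. The late HL60 call was lost with equal library totals. Between late and ch+ cells the pooled difference was 0.09 (adjusted p = 0.921). Without the late ML1 libraries late cells were higher by 1.2 (adjusted p = 0.00325). That value sets late HL60 (mean 10.89) against ch+ HL60 (10.07) and ch+ ML1 (9.28) together, and so mixes stage with line. The difference was not called with HL60 alone, nor with ML1 alone (-0.64, adjusted p = 0.144). In ch- cells Fmod was also called lower than ctrl in ML1 (-1.11, adjusted p = 0.058, beside 2.34% of all genes), but not in HL60 (-0.59, adjusted p = 0.484). With the lines pooled it was not called (-0.85, adjusted p = 0.496), unless 7 groups by line were fitted (adjusted p = 0.0949). Leaving out 1 library, this pooled value ran from -1.13 to -0.47.

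Prelp (ENSMUSG00000041577), which links basement membranes to collagen through heparan sulfate, dipped in ch+ cells. Its values were 13.66, 13.12 and 12.95 in ctrl, 12.62, 12.48 and 12.02 in ch+ HL60 and 12.87, 12.38 and 12.23 in ch+ ML1. In late cells they were 13.05, 13.19 and 13.08 for HL60 and 12.76, 12.77 and 12.95 for ML1. All ch+ libraries were below ctrl, and the late HL60 libraries lay within the ctrl range. Prelp fell by 0.81 ± 0.17 in ch+ cells against ctrl (1.75-fold, adjusted p = 0.0041, 6 of 6 lower) and by 0.59 ± 0.14 against ch- cells (1.51-fold, adjusted p = 0.00888), where the groups overlapped. It was 0.53 ± 0.14 higher in late than in ch+ cells (adjusted p = 0.00762; 0.67 and 0.00462 without the late ML1 libraries). This call was lost in ML1 alone (0.33, adjusted p = 0.237), and the value was 1.15 with equal library totals. Late against ctrl it did not pass (-0.28, adjusted p = 0.323), but it did with ML1 alone (-0.41, adjusted p = 0.0991). Leaving out 1 library, the pooled value ran from -0.42 to -0.07. That value turned to 0.42 with equal library totals (adjusted p = 0.0493) and to 0.24 with totals that leave out the most abundant gene.

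Of the class III members, Epyc (ENSMUSG00000019936) is a product of growth plate chondrocytes. Its values were 7.67, 7.04 and 7.20 in ctrl, 5.27, 4.44 and 2.93 in ch+ HL60 and 3.84, 2.98 and 3.28 in ch+ ML1. In late cells they were 4.60, 4.27 and 3.87 for HL60 and 2.80, 3.69 and 3.88 for ML1, and in ch- cells they ran from 5.48 over 5.98 to 6.72. The 3 levels did not overlap: ctrl was highest, ch- cells were between, and ch+ and late cells shared the lowest range. Epyc fell by 3.51 ± 0.44 in ch+ cells against ctrl (11.4-fold, adjusted p = 6.12e-06), by 2.21 ± 0.36 against ch- cells (4.62-fold, adjusted p = 1.09e-04) and by 3.46 ± 0.44 in late cells (11-fold, adjusted p = 1.31e-06), each in 6 of 6 libraries. The late log2 fold change was -3.06 in HL60 and -3.85 in ML1, and the lines did not differ by the test (0.79, interval -0.18 to 1.77, adjusted p = 0.642). In ch- cells against ctrl all 6 libraries were lower, by -1.31 with an adjusted p of 0.182. It passed with only the compared groups fitted (adjusted p = 0.0836) and with ML1 alone (-1.54, 0.0901). Epyc values lie near the low end of the scale, where the deposited values are drawn toward the mean of each gene.

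Ogn (ENSMUSG00000021390), named for its isolation from bone, had values above ctrl in ch+ cells of both lines and in late HL60. It had values of 10.26, 10.15 and 9.26 in ctrl, 10.52, 10.76 and 10.51 in ch+ HL60 and 10.79, 11.11 and 10.44 in ch+ ML1. In late cells Ogn had 11.18, 11.14 and 11.37 in HL60 and 9.94, 9.67 and 10.14 in ML1. All ch+ and all late HL60 libraries lay above ctrl, and late ML1 lay within it. In late HL60 Ogn rose by 1.34 ± 0.20 (2.53-fold, adjusted p = 2.04e-05) and in late ML1 it differed by 0.02 (adjusted p = 0.965). With the lines pooled, the late difference of 0.68 did not pass (adjusted p = 0.1), and it passed without ctrl library 373 (0.87, adjusted p = 0.0738) or without late ML1 library 581, 582 or 583 (0.81, 0.86 and 0.77). Without ctrl library 375 it was 0.37 and did not pass. It passed as well with 7 groups by line (adjusted p = 0.00544), a higher filter (0.0912), without ch+ ML1 library 539 (0.0996), with quantile normalization (0.73, 0.0776), equal totals (1.37, 1.33e-04) and totals that leave out the most abundant gene (1.19, 0.00122). In ch+ cells Ogn rose by 0.71 in HL60 (adjusted p = 0.047) and by 0.89 in ML1 (adjusted p = 0.00689), whereas the pooled value of 0.80 did not pass (adjusted p = 0.119) and was 0.48 without ctrl library 375. That pooled value passed in a fit with 7 groups by line (adjusted p = 0.00418), without the late ML1 libraries (0.00496), with only the compared groups (0.0123) and with equal totals (0.87, 0.0531) or totals that leave out the most abundant gene (0.82, 0.0912). It also passed when late ML1 library 582 (0.0717) or late HL60 library 399 (0.0857) was left out of the shared estimate of spread.

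Podn (ENSMUSG00000028600), a class V SLRP of vascular smooth muscle and other mesenchyme, had values of 7.85, 7.79 and 9.24 in ctrl, 8.30, 9.09 and 9.13 in late HL60 and 9.43, 9.27 and 9.45 in late ML1. The third ctrl library was as high as late cells, so that late ML1 alone lay above all of ctrl. Podn rose by 0.82 ± 0.28 in late cells (1.77-fold, adjusted p = 0.0449, higher than all ctrl libraries in 3 of 6), by 1.09 in ML1 (adjusted p = 0.0133) and by 0.55 in HL60, which did not pass (adjusted p = 0.34). The pooled call was lost without ctrl library 373 (0.60, adjusted p = 0.245) or 374 (0.57, 0.276) and without the late ML1 libraries (0.55, 0.377), and with no filter on low values (adjusted p = 0.136). The value was larger without ctrl library 375 (1.29), with equal library totals (1.51) and with totals that leave out the most abundant gene (1.33). Late against ch+ cells Podn was 0.69 higher (adjusted p = 0.0379), a call lost without ch+ ML1 library 541 (0.56, adjusted p = 0.118) and without the late ML1 libraries (0.42, 0.473), and with no filter (adjusted p = 0.124).

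**Figure D2:**
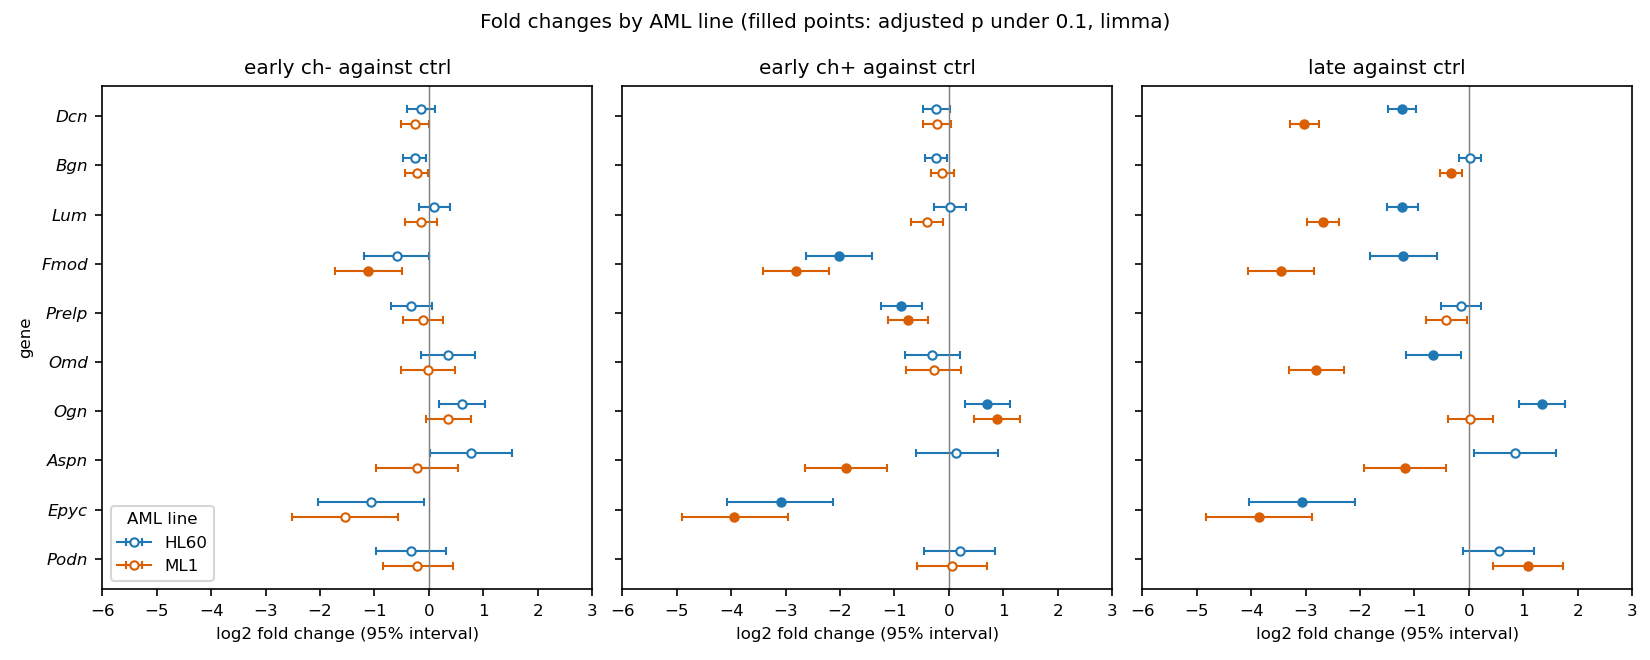
Log2 fold change against ctrl (horizontal axis, with 95% intervals) of each SLRP gene (vertical axis) in ch-, ch+ and late cells for HL60 (blue) and ML1 (orange), 3 libraries against 3; filled points passed the test. In late cells the ML1 values of Dcn, Lum, Fmod and Omd, between -2.68 and -3.45, lie to the left of the HL60 values, between -0.65 and -1.22.

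Most calls between the cell lines were made in late cells, and whether the difference between the lines changed with stage was not tested. Tested directly in late cells, 7 of 10 members differed between HL60 and ML1, beside 4.09% of all genes, and all 7 were higher in HL60 (3.16% of all genes): Dcn by 1.80, Bgn by 0.35, Lum by 1.46, Fmod by 2.25, Aspn by 2.02, Ogn by 1.32 and Omd by 2.15. Each had all 3 HL60 libraries above all 3 ML1 libraries, a split for which an exact permutation test of 3 against 3 cannot go below 0.1. The median difference was 1.39 over the members and 0.00 over all genes. The call of Bgn was lost without late ML1 library 582 (0.30, adjusted p = 0.203), late HL60 library 397 (0.35, 0.136) or 399 (0.31, 0.195), and with equal library totals (0.11, 0.685) or totals that leave out the most abundant gene (0.20, 0.471). It was also lost with no mean-variance trend (adjusted p = 0.421) and with only the compared groups fitted (0.21). Prelp (0.28), Epyc (0.79) and Podn (-0.55) did not pass. In ch+ cells limma called 1 member between the lines, Aspn, beside 0.0154% of all genes, with 3 at an unadjusted p under 0.05. In ch- cells limma called 0 members (0.0539% of all genes), with 1 at an unadjusted p under 0.05. Because the late ML1 libraries are those with the contradictory label, this contrast has no value without them.

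Early calls were also read within each line. In HL60 ch+ cells against ctrl 4 members were called (5.33% of all genes) and in ML1 5 (6.69% of all genes); Fmod, Prelp and Epyc were lower and Ogn higher in both, and Aspn was lower in ML1. Of ch+ against ch- cells, HL60 held 2 called members, Fmod and Epyc (3.92% of all genes), and ML1 4, with Aspn and Prelp added (4.25% of all genes). The difference of these ch+ effects between the lines passed for no member, beside 0.0077% of all genes. The adjusted p of limma ran from 0.782 for Aspn, whose effects differed by 1.03 ± 0.52, to 0.987 for Prelp. An unadjusted p under 0.05 was found for 0 of 10 members.

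The make-up of the SLRP signal changed with these genes. Summed per kb, the 10 members gave 22.9 ± 1.35 normalized kilocounts per kb in ctrl (SD, n = 3), 17.4 ± 0.664 in late HL60 and 10.9 ± 0.756 in late ML1. With equal library totals the sums were 20.5 ± 2.82, 23.1 ± 1.44 and 17.1 ± 1.06, so that late HL60 lay above ctrl by the mean, whereas the shares below do not depend on the total. Bgn held 37.2% of this sum in ctrl, 49.8% in late HL60 and 62.3% in late ML1, and Dcn 23.8%, 13.4% and 6.11%. Prelp held 11.9%, 14.0% and 18.5%, so that in late ML1 it ranked second, ahead of Dcn, with no overlap of their libraries. Fmod held 6.12% in ctrl, 1.78% in ch+ HL60 and 1.03% in ch+ ML1. Ogn held 1.69% in ctrl and 5.40% in late HL60, where it ranked above Aspn, Fmod and Omd. The length used for Bgn matters most: with the longest annotated transcript of each gene as its length, Bgn held 55.2% in ctrl, 67.9% in late HL60 and 78.3% in late ML1. With that length the share of Dcn in late HL60 (9.92%) was above that of Prelp (8.37%).

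**Figure D3:**
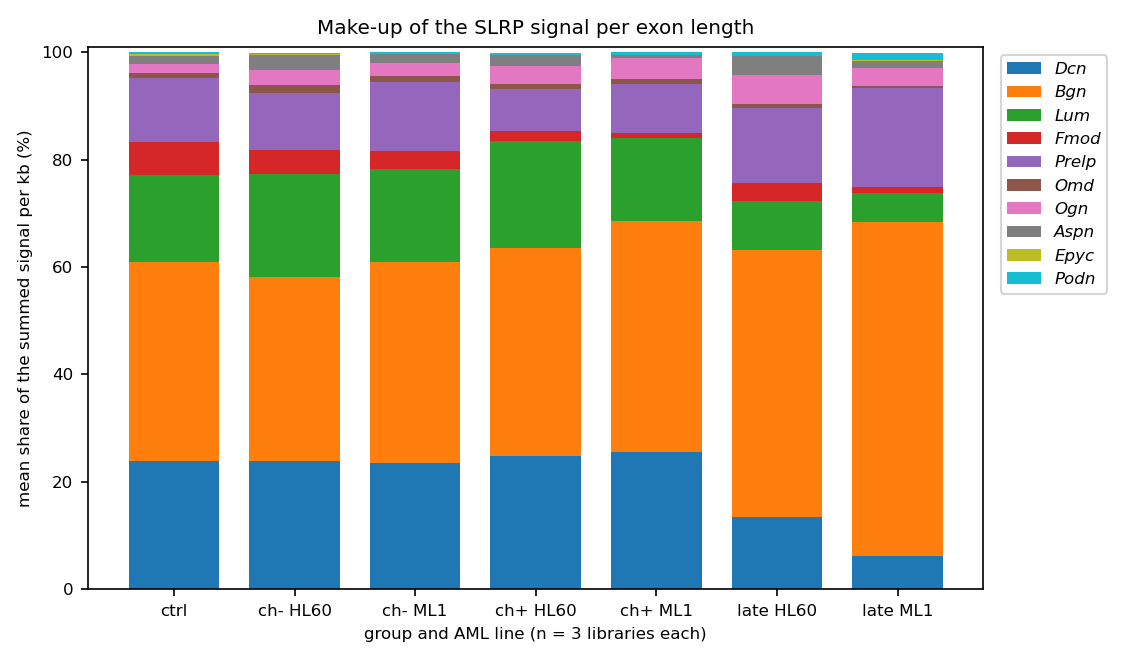
Mean share of each SLRP gene in the summed signal per kb of exon (vertical axis, percent) by group and cell line (horizontal axis, 3 libraries each). The share of Bgn is 37.2% in ctrl and 62.3% in late ML1, and that of Dcn 23.8% and 6.11%.

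Most members lie in chromosomal clusters. On GRCm38, Dcn, Lum, Kera and Epyc lie on the plus strand of chromosome 10 within 203 kb, with 47.0 kb between Dcn and Lum. Ecm2, Aspn, Omd and Ogn lie on the plus strand of chromosome 13 within 120 kb, and Omd and Ogn are 15.2 kb apart. On chromosome 1, Prelp lies on the minus strand 116 kb from Fmod, with Optc 2.3 kb beyond Prelp. The neighbors Dcn, Lum and Epyc all fell late, and Prelp and Fmod both fell in ch+ cells. Dcn and Lum had a Pearson r of 0.974 over the 21 libraries. Omd and Ogn, neighbors as well, had an r of 0.259, and Prelp and Fmod one of 0.640. The 21 libraries share the group structure, so these are descriptions across libraries that include the groups. Aspn, Omd and Ogn lie inside Cenpp, a gene of the opposite strand with a mean log2 value of 2.22, and 7 exon bases of Aspn are shared with it. Of the exon bases of Epyc, 1041 of 2561 are shared with Gm10754 on the opposite strand (mean log2 value -2.23), and of those of Prelp 350 of 3615 with Gm15851 (-1.71). Podn overlaps Scp2 on the same strand (mean log2 value 8.15), with 0 exon bases shared.

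**Figure D4:**
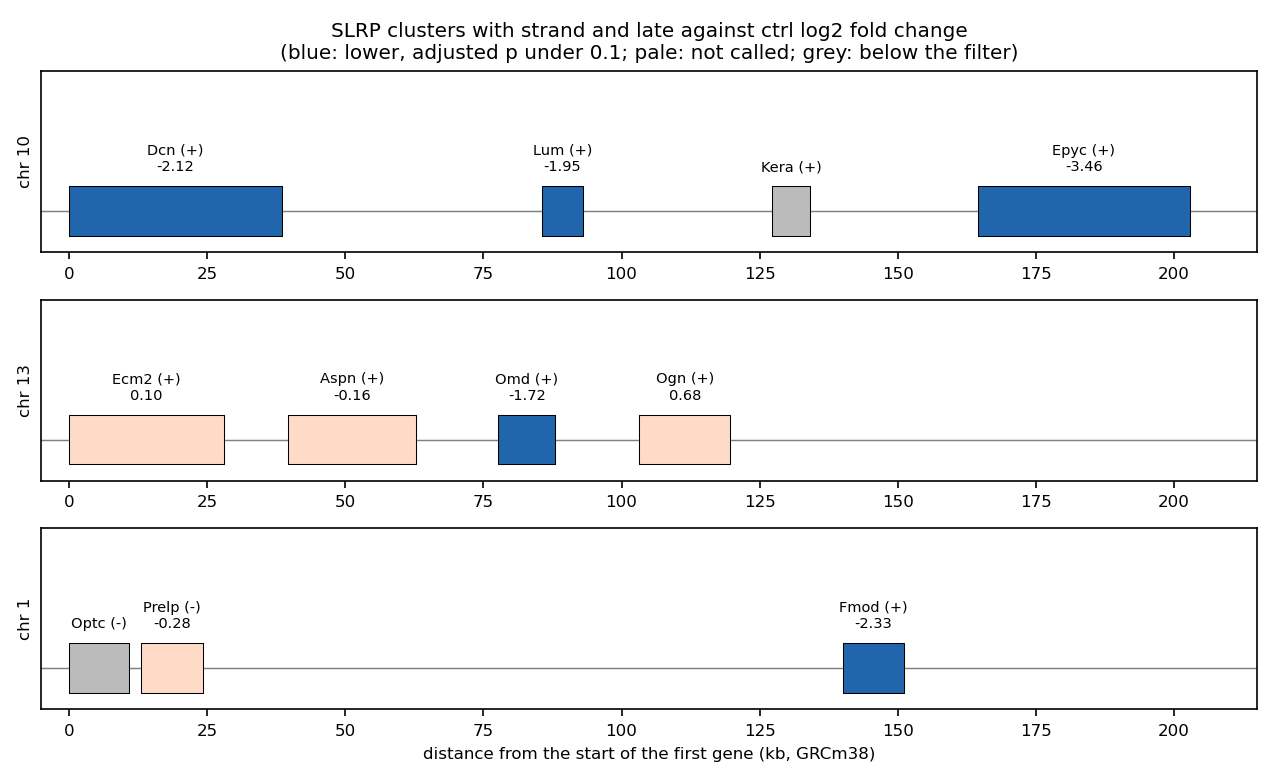
Positions of the SLRP genes of 3 chromosomal clusters (horizontal axis, kb from the first gene, to scale; GRCm38) with strand and the late against ctrl log2 fold change of the genes tested. Omd (-1.72, called lower) and Ogn (0.68, not called) lie 15.2 kb apart, and the direction of the uncalled Aspn value (-0.16) turns when library totals are made equal (0.53).

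Genes outside the family were ranked by the likeness of their values over the 21 libraries to each member. The nearest to Dcn were the osteocalcin genes Bglap (r = 0.992), Bglap2 (0.991) and Bglap3 (0.990). Those nearest to Lum were Bglap3 (0.977), Bglap2 (0.977) and Mamdc2 (0.976), and to Omd the gelatinase gene Mmp2 (0.958), Cdo1 (0.957) and Bmp3 (0.956). Epyc was nearest to the cartilage genes Col9a1 (0.942), Cnmd (0.940) and Acan (0.940), and Fmod to Comp (0.921), Ntrk2 (0.920) and Matn3 (0.914). Looser likeness was found for Ogn with Gas6 (0.866), Ankrd29 (0.799) and Tpp1 (0.794), for Aspn with Tnn (0.854), Postn (0.842) and Mest (0.782), and for Prelp with Olfr558 (0.827), Chad (0.791) and Cytl1 (0.791). Podn was nearest to Pfkfb3 (0.823), Phactr2 (0.814) and Zfp36l2 (0.804), and Bgn to Ube2h (0.768), Ptms (0.701) and Man2b2 (0.696).

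Markers of bone and cartilage cells moved with these members. Counts here and in the next paragraph stand beside 21.5% of all genes called late against ctrl and 13.7% in HL60 late against ctrl. The share was 4.09% in late HL60 against ML1, 6.17% in ch+ and 1.92% in ch- cells against ctrl, and 6.26% in ch+ against ch- cells. The 8 osteoblast genes summed to 124, 120 and 132 normalized kilocounts in ctrl, 63.7, 74.3 and 47.7 in late HL60 and 31.4, 25.8 and 22.6 in late ML1, the order seen for Dcn, Lum and Omd. Late against ctrl, 7 of the 8 fell and 1 rose, with a median of -2.19 (the same counts and -1.18 in HL60), and in late cells all 8 were higher in HL60 than in ML1. Bglap was the most abundant of them in ctrl (32.0% of the sum) and Spp1 in late cells (57.8%). The 13 chondrocyte genes summed to 178, 90.8 and 110 kilocounts in ctrl, to between 51.9 and 106 in ch- cells, between 18.1 and 42.1 in ch+ cells, between 13.7 and 20.7 in late HL60 and between 3.52 and 5.33 in late ML1. Col2a1 made up 66.3% of this sum in ctrl, and Matn1 lay below the filter. Of the 12 that were tested, 11 were lower in ch+ than in ch- cells and 12 were lower in late cells than in ctrl (12 in HL60 too), as were Fmod and Epyc. The mesenchymal genes went the other way, from a ctrl median of 53.3 to 121 kilocounts in late cells, and 6 of 9 rose while 1 fell (6 and 0 in HL60). The part that a different mix of cells had in the fall of any SLRP was not tested.

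Further lists were summed in the same way. The 6 smooth muscle and pericyte genes, of which Rgs5 was the most abundant in ctrl (38.0% of the sum), had median sums of 21.5 (ctrl), 15.9 (ch-), 7.05 (ch+) and 9.88 (late) kilocounts, and all 6 were lower in ch+ than in ch- cells. The 7 red cell genes, led by Hbb-bs (42.1% of the sum in ctrl), had medians of 0.433, 7.74, 8.5 and 0.0935 kilocounts in the same order, and the 9 blood cell genes, led by Lyz2 (63.0%), 0.473, 1.91, 2.23 and 0.197. In ch+ cells against ctrl all 7 red cell genes and all 8 tested blood cell genes were called higher, as were 4 of 4 skeletal muscle and 2 of 7 fibroblast genes, while all 6 smooth muscle and 1 of 4 tendon genes were lower and no osteocyte gene was called. In ch- cells against ctrl 7 of 7 red cell, 7 of 8 blood cell and 1 of 2 osteocyte genes were higher and 1 of 7 fibroblast genes was lower. In late cells against ctrl 4 of 6 smooth muscle, 4 of 7 red cell, 3 of 8 blood cell, 4 of 7 fibroblast, 1 of 4 skeletal muscle and 1 of 4 tendon genes were lower, and 1 tendon gene was higher. In HL60 the lower counts were 4, 4, 1, 3, 1 and 1, and no tendon gene was called higher. With equal library totals 2 smooth muscle, 4 red cell and 3 fibroblast genes were lower and no blood cell gene was. At that scaling 64% of all genes were called, and 60% were called higher. The 8 fibroblast genes, led by Gsn (57.5%), had 3.68, 3.22, 5.98 and 1.69, the 7 tendon genes, led by Thbs4 (82.3%), 1.88, 1.38, 1.67 and 0.686, the 4 osteocyte genes, led by Dmp1 (95.3%), 1.74, 1.86, 1.16 and 1.28, and the 5 skeletal muscle genes, led by Acta1 (41.5%), 0.0425, 0.159, 0.293 and 0.0268. Sost and Fgf23 of the osteocyte genes, Scx, Tnmd and Kera of the tendon genes, Clec3b, Cd79a and Myh4 lay below the filter. Their part in the SLRP results was not tested.

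Of 5 other SLRP genes tested, 2 (Chad and Chadl) were called lower in ch+ cells against ctrl, beside 2.75% of all genes, and 3 (with Tsku) in late cells, beside 11.4% (3 in HL60 too). Chad (chondroadherin) had values of 13.21, 12.78 and 12.06 in ctrl, 9.96, 9.18 and 6.69 in ch+ HL60 and 9.09, 8.37 and 8.67 in ch+ ML1. In late cells Chad had 10.74, 12.22 and 10.39 in HL60 and 8.00, 9.20 and 8.42 in ML1, so that only late HL60 library 398 reached the ctrl range. Chad fell by 4.02 ± 0.62 in ch+ cells against ctrl (16.3-fold, adjusted p = 1.05e-04), by 3.20 against ch- cells (adjusted p = 6.57e-05) and by 2.86 in late cells (adjusted p = 0.00121), and in late cells it was 2.58 higher in HL60 than in ML1 (adjusted p = 0.00229). Its relative Chadl fell by 3.08 in ch+ and by 2.86 in late cells against ctrl. Tsku (tsukushi, an inhibitor of BMP signaling) fell in late cells in both lines, by 1.30 in HL60 and 1.13 in ML1, and with the lines pooled by 1.21 (adjusted p = 5.99e-04). Ecm2, next to Aspn, differed by 0.10 late (adjusted p = 0.752), and Podnl1 by 0.56 (adjusted p = 0.216). With equal library totals, or totals that leave out the most abundant gene, 2 of the 5 genes were called higher late (beside 60% and 44.1% of all genes) and 3 still lower. Kera, Optc and Nyx, known from cornea and eye, lay below the filter, with mean log2 values of 2.31, 2.72 and 2.15.

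Genes that build the glycosaminoglycan chains of SLRPs changed in both directions. Counts in this and the following lists stand beside 21.5% of all genes called in late cells against ctrl, 13.7% in HL60 late against ctrl and 6.26% in ch+ against ch- cells. With equal library totals 64% of all genes were called in late cells against ctrl, and 60% were called higher. Of 22 genes of chondroitin and dermatan sulfate synthesis, 3 rose and 4 fell in late cells against ctrl, with a median of -0.20 beside 0.02 for all genes. Xylt1, which attaches the first sugar to the core protein, fell by 2.49 ± 0.28 (adjusted p = 2.17e-07), Ust by 1.84 and the 4-O-sulfotransferase gene Chst11 by 1.59, while Dse, the epimerase that makes dermatan sulfate, rose by 1.04 ± 0.22 (adjusted p = 0.00112). In ch+ against ch- cells 1 of the 22 fell, Chst11 by 0.71. With equal library totals the late counts of this list went from 3 up and 4 down to 10 up and 3 down. In HL60 alone they were 1 up and 4 down. Of 9 tested genes for keratan sulfate and sulfate supply, 1 rose (B4galt4 by 1.1) and 5 fell late, with a median of -0.54; Papss2 fell by 1.97 and Slc26a2 by 1.54, both needed for sulfation in cartilage, and B3gnt7 by 1.33. With equal library totals 3 of the 9 were higher, beside 60% of all genes, and 2 lower. In HL60 0 were higher and 3 lower, B4galt4 not passing (adjusted p = 0.133). In ch+ against ch- cells Chst2 rose by 1.96 ± 0.16 (adjusted p = 2.26e-09), and Papss2 fell by 0.78 and Papss1 by 0.48. In this comparison 1 of the 9 was called higher and 1 lower with equal library totals.

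Among 13 collagen and crosslinking genes that SLRPs bind or accompany, 7 fell and 3 rose in late cells against ctrl. Their median was -0.86. With equal library totals the counts were 5 and 5, and in HL60 7 fell and 3 rose. Col2a1 fell by 3.94, Col11a1 by 3.31, Col1a1 by 2.92 and Col1a2 by 2.72. In HL60 the values of these genes were -2.95, -2.2, -1.67 and -1.59. In ch+ against ch- cells Col2a1 fell by 1.82 while the other 12 did not pass. Of 13 receptor and growth factor genes, 4 rose and 2 fell late (3 and 2 in HL60). With equal library totals 8 rose, beside 60% of all genes called higher, and 2 fell. Tgfb3 rose by 1.74 and Tlr4 by 0.95, and Met fell by 1.79 and Ccn4 by 1.55 (-0.99 in HL60). In ch+ against ch- cells 3 of them rose and 1 fell: the decorin receptor genes Met by 2.41 ± 0.38 and Egfr by 1.47 ± 0.15, and Lrp1 by 0.62, with Tgfb2 lower by 0.61. With equal library totals 4 were called higher, beside 6.48% of all genes, and 0 lower, so that the Tgfb2 call was lost.

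All 8 tested genes of proteases that cut or process SLRPs changed in late cells, 4 up and 4 down. Adamts4 rose by 1.35 and Mmp13 by 1.34, and Mmp2 fell by 1.06 (-0.53 in HL60) and Adamts5 by 0.83. With equal library totals 5 of the 8 were higher, beside 60% of all genes, and 1 lower. In HL60 3 were higher and 2 lower, Adamts5 not passing (-0.26, adjusted p = 0.513). Adamts5 rose by 1.18 ± 0.21 in ch+ against ch- cells (adjusted p = 3.63e-04). Of 19 other proteoglycan core protein genes tested, 5 rose and 10 fell late, with a median of -0.47; with equal library totals these were 6 and 4, and in HL60 5 and 7. Prg4 (lubricin) fell by 3.84, Acan by 3.64 and Cspg4 by 1.97 while Smoc1 rose by 1.88. In ch+ against ch- cells 4 rose and 1 fell: Prg4 by 4.09 ± 0.39 (adjusted p = 1.94e-08), Sdc2 by 1.2 and Sdc1 by 1.00 were among those up, and Acan fell by 3.21.

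Promoter sequence was read for 8 of the 10 members from a RefSeq table on GRCm38.p6, which holds 10 windows for them; Dcn and Lum have no entry. The 250 bases before the annotated start are shown for Fmod and Epyc, which fell together in ch+ cells, and for the neighbors Omd and Ogn, which did not move together. On both strands, the letters TATAAA of the core promoter were found in 12.4% of all 32817 windows of this length, TGTGGT (RUNX) in 14.0%, TGANTCA (AP-1) in 6.75% and CATTGT (SOX) in 10.7%. Among the members, TATAAA was in the windows of Aspn and Ogn, TGTGGT in that of Ogn, CATTGT in both windows of Epyc, and TGANTCA in none. The sequences are written 5′ to 3′ on the strand of the gene; in Ogn TATAAA is found on both strands, overlapping, and TGTGGT on the other strand, where it reads ACCACA. A match is a description, not a site or a cause, and no match says only that these letters are not in this window. The windows are chr1:134037004-134037253 (Fmod), chr10:97643818-97644067 (Epyc), chr13:49582212-49582461 (Omd) and chr13:49607765-49608014 (Ogn), all on the plus strand.
Fmod: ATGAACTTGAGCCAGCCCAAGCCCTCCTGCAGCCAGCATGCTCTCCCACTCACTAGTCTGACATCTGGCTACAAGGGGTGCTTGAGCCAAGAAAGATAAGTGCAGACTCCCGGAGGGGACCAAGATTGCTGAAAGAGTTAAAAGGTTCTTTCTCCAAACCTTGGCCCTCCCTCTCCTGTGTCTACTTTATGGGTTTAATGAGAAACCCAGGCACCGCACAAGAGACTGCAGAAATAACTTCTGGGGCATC
Epyc: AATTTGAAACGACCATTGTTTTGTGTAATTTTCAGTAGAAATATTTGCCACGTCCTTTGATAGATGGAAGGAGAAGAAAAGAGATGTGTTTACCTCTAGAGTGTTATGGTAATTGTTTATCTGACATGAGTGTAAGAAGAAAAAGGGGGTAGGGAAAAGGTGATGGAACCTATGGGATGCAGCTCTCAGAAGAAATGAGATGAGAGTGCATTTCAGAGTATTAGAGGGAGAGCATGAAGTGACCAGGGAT
Omd: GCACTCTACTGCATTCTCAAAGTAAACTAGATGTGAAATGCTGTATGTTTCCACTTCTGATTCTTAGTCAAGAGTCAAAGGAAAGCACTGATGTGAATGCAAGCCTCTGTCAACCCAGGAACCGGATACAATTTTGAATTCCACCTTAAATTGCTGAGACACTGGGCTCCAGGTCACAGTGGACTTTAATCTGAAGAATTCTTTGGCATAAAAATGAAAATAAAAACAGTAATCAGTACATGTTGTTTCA
Ogn: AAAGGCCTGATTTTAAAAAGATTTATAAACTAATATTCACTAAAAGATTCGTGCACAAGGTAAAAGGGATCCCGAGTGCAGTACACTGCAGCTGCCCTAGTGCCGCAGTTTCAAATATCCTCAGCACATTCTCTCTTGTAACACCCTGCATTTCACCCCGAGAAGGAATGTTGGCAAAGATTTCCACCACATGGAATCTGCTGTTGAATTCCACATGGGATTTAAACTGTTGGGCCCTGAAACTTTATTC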

How the data were processed

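RNA-seq of Nes low cells was read from 1 deposited table. Per the labels, the authors aligned reads to mm10 with STAR 2.5.1b, counted genes with RSEM 1.2.29, and normalized with DESeq2 1.10.1. The deposited values are log2: they run from -2.33 to 22.44 and their spread shrinks at low means (median SD over libraries 0.59 for means of 4 to 6, 0.02 below 0), as regularized values do, although the paper's methods speak of log10; so counts and depth per library are unknown. Genes with a mean of at least log2 of 10 normalized counts (3.32) were fitted with limma 3.58.1 in R 4.3.3 (empirical Bayes, mean-variance trend, two-sided tests, Benjamini-Hochberg over 12976 genes, adjusted p under 0.1), in 1 fit with 4 groups and 1 with 7 groups by line; intervals are 95%. The code was tested on simulated data. Exact permutation tests were two-sided. Per-kb levels use the union of exons (GENCODE M21). Sums convert values from log2. Python 3.11.15, numpy 2.4.6, pandas 2.3.3 and matplotlib 3.10.9 made tables and figures. The members and lists were chosen with earlier results of these data known. Named genes are all members, all other SLRP genes, up to 4 called genes per pathway list with the largest change in late against ctrl and in ch+ against ch- (pathway counts are given for these comparisons), and the 3 genes nearest to each member; marker lists are given as sums and counts, with the most abundant gene in ctrl and the genes below the filter. Alternatives were other filters, scalings, fits and thresholds, each line alone, leaving out each library, the longest transcript as length and, added later, no late ML1 libraries and a block over ch+ and ch- libraries matched by number order.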

Additional observations from a re-analysis of the deposited data

Results flagged for a closer look

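In 45 groups of a gene tested for a distant library (Dixon's test, 6 libraries each), 2 held one; by chance about 1 in 20 would. Bgn had a log2 value of 15.30 in ch+ HL60 library 525, with a gap of 0.643 of the group's range, and Podn 8.30 in late HL60 library 397, with a gap of 0.687. A difference between the cell lines in late cells was found for Dcn (1.80), Bgn (0.35), Lum (1.46), Fmod (2.25), Aspn (2.02), Ogn (1.32), Omd (2.15) and Chad (2.58), all higher in HL60, and in ch+ cells for Aspn (2.03). The late ML1 libraries carry a contradictory treatment label. They are the whole ML1 side of the late contrast, which therefore cannot be made without them.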

How the results depend on the processing

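No direction of the 25 called fold changes of members with the lines pooled or between the lines turned under any alternative (0 reversed). Within the lines 30 were called, and 1 of them turned under all 3 scalings: Bgn in late ML1 against ctrl, to 0.56 (quantile), 0.49 (equal totals) and 0.27 (totals without the most abundant gene), for which the cause was not tested. Against ctrl, scaling ended the calls of Omd in late HL60 (-0.6, -0.08 and -0.21), Fmod in late HL60 (-0.63, equal totals) and Aspn in late ML1 (-0.35 and -0.58, both totals), and in ML1 that of Prelp in ch+ against ch- cells (-0.45 and -0.59, both totals). Counts of called members left out 1 library at a time ran from 5 to 7 (late against ctrl), 3 to 4 (ch+ against ctrl), 0 to 0 (ch- against ctrl), 3 to 4 (ch+ against ch-), 4 to 5 (late against ch+), 6 to 7 (late HL60 against ML1), 0 to 1 (ch+ HL60 against ML1) and 0 to 0 (ch- HL60 against ML1).

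Counts that moved, for which the cause was not tested, included ch+ against ctrl, 5 with ML1 alone. For ch- against ctrl the count was 1 with only the compared groups (Epyc) and with 7 groups (Fmod), and 2 with ML1 alone (both). For late against ch+ it was 10 with equal totals, beside 69.6% of all genes (65.1% higher). It was 3 with a log2 fold change of at least 1, which asks more of each gene. For ch+ HL60 against ML1 it was 0 with no filter, no trend, robust variance, sample weights and only the compared groups. Late against ctrl gained Bgn, Aspn and Prelp with ML1 alone (adjusted p of 0.0443, 0.0284 and 0.0991) and lost Podn with no filter (0.136). With no filter ch+ against ch- lost Fmod (0.103), and with 7 groups late against ch+ gained Aspn (0.0594).

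The following values, not called as reported, reversed; the cause was not tested. Late against ctrl: Bgn 0.80 (quantile), 0.55 (equal totals), 0.37 (totals without the most abundant gene) and 0.03 (HL60 alone, and no late ML1 libraries, an alternative chosen after seeing the data); Aspn 0.53, 0.35 (both totals) and 0.85 (HL60 alone, no late ML1); Prelp 0.42 and 0.24 (both totals). ch+ against ctrl, HL60 alone: Lum 0.02, Aspn 0.14. ch- against ctrl: Bgn 0.18 (quantile), Lum 0.00 (weights) and 0.10 (HL60 alone), Aspn -0.21 and Omd -0.02 (ML1 alone). ch+ against ch-: Dcn 0.13, 0.02 (both totals) and 0.04 (ML1 alone), Bgn -0.28 (quantile). Late against ch+: Bgn -0.20 and Fmod -0.64 (ML1 alone), Fmod -0.03 and Epyc -0.03 (weights), Ogn 0.50, 0.37 (both totals), 0.63 (HL60 alone) and 0.54 (no late ML1). ch+ HL60 against ML1: Dcn 0.04 and 0.02 (both totals), Omd 0.00 (quantile), 0.02, 0.01 (both totals) and 0.01 (weights). ch- HL60 against ML1: Bgn 0.07 (equal totals).

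Leaving out 1 library, the ranges that crossed 0 were, for late against ctrl, Aspn -0.47 to 0.05; for ch+ against ctrl, Podn -0.12 to 0.60; for ch- against ctrl, Aspn -0.03 to 0.47, Lum -0.08 to 0.07 and Podn -0.52 to 0.21; for ch+ against ch-, Dcn -0.08 to 0.01; for late against ch+, Bgn -0.02 to 0.09, Epyc -0.11 to 0.35, Fmod -0.18 to 0.41 and Ogn -0.28 to 0.07; for ch+ HL60 against ML1, Dcn -0.09 to 0.11, Omd -0.30 to 0.13, Podn -0.16 to 0.38 and Prelp -0.25 to 0.07; and for ch- HL60 against ML1, Bgn -0.09 to 0.01 and Podn -0.26 to 0.11. With the longest transcript as length, 15 of 70 levels per kb moved by more than their SD. Low values such as those of Epyc are limited by an unknown depth. The labels pair no ch+ and ch- libraries. The libraries were also matched by the order of their numbers within each line, an inference chosen after seeing the data. Matched libraries' deviations from their group means had correlations of -0.0209 to 0.0463, and 3 of 6 ch+ libraries correlated best with their match. With 3 libraries for each sort and line, these correlations cannot decide whether the numbers are pairs. The comparisons were left unpaired because the labels give no match. With a replicate block on this matching, 4 members were called in ch+ against ch- cells, Aspn being added (-1.15, adjusted p = 7.9e-05), beside 7.28% of all genes, and 0 in the difference between the lines.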
